A study of Mus musculus with 15 samples.

Results

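The 8 genes described here encode parts of the ion-pumping P-type ATPases of the tubule: the beta subunits Atp1b1, Atp1b2 and Atp1b3 of the Na,K-ATPase, the FXYD proteins Fxyd2, Fxyd4 and Fxyd5 that attach to it, and the catalytic subunits Atp4a and Atp12a of the H,K-ATPases. They were chosen by symbol, from GENCODE names matched to the Ensembl identifiers of the deposited count table, and all 8 were found among its 54752 genes. RNA came from tubules dissected from mouse kidneys, and 15 libraries fall into 4 groups: proximal convoluted tubule of Cldn10a KO mice (n = 3), proximal convoluted tubule of WT mice (n = 4), distal convoluted tubule of Cldn10a KO mice (n = 4) and distal convoluted tubule of WT mice (n = 4). Cldn10a is the claudin-10a form of the tight junction gene Cldn10. Per the labels, all mice were housed on a standard diet with free access to water and were killed under isoflurane, no drug or other treatment is named for any group, and age, strain, sex and the kind of knockout allele are not given. From each kidney, 10 proximal tubules or roughly 20 distal ones were pooled. The labels do not tie each library to its own animal, so the p-values rest on variation between libraries that may be technical.

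The Na,K-ATPase sits in the basolateral membrane and moves sodium out of the cell and potassium into it, which drives sodium reabsorption along the nephron. Its alpha subunit splits ATP, its beta subunit is a glycoprotein needed for folding and delivery to the membrane, and a small FXYD protein can bind the pair and tune its affinity for sodium and potassium. The H,K-ATPases are close relatives that exchange protons for potassium: Atp4a is the catalytic subunit of the gastric acid pump, and Atp12a that of the non-gastric or colonic form. The distal convoluted tubule is known for its deep basolateral infoldings and high pump activity.

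The libraries held 28729339 to 51764746 counts, of which mitochondrial ribosomal RNA took 57.8 to 71.6% and nuclear protein-coding genes 8.02 to 19.7%, so the depth behind the genes described here is far below the totals. Nuclear protein-coding genes took 12.5 to 19.7% in proximal libraries and 8.02 to 11.6% in distal libraries. Cldn10 had 0 counts in the 3 proximal KO libraries and 541 to 1514 counts in the 4 proximal WT libraries. It was at 0 to 24 counts in distal KO and 3 to 22 counts in distal WT, so the gene could not check the genotype labels there. The 12 proximal markers summed to 6083 to 6551 CPM in proximal KO and 5558 to 6606 CPM in proximal WT, against 9.74 to 17.6 CPM in distal KO and 13.7 to 19.9 CPM in distal WT. Slc12a3, the thiazide-sensitive cotransporter that defines the distal convoluted tubule, had 610 to 843 CPM in distal KO and 603 to 825 CPM in distal WT. The distal pools also held RNA of neighbouring cell types: the 7 thick limb markers summed to 455 to 601 CPM in KO and 323 to 550 CPM in WT, and the 9 intercalated cell markers to 139 to 251 CPM in KO and 221 to 289 CPM in WT.

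Promoter sequence is shown for 2 of the members that were lower in proximal tubule in both genotypes: Atp4a, which was close to absent there, and Atp1b1, which gave most of the beta subunit reads. Each line is the stretch of 250 bases that ends just before the start site, taken from RefSeq on GRCm38.p6 and written 5′ to 3′ on the strand of the gene; Atp4a is chr7:30711959-30712208 on the plus strand and Atp1b1 is chr1:164458356-164458605 on the minus strand. Capitals mark matches, on either strand, to 6 motifs that were searched.
Atp4a: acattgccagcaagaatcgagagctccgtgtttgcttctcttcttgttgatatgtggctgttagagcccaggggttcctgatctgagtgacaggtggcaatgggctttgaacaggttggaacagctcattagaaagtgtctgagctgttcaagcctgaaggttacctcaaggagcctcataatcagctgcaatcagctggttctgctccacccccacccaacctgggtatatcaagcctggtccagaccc
Atp1b1: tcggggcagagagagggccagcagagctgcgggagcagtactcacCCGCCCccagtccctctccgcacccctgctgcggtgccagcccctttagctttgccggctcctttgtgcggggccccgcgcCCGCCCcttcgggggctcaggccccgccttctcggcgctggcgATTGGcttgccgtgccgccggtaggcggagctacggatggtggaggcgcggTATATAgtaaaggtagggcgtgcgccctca

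The motifs were the HNF1 half-site GTTAAT (in 6.43% of 32851 RefSeq promoters of this length), the HNF4 motif CAAAGTCCA (0.384%), the estrogen-related receptor half-site AAGGTCA (4.08%), TATANA (22.6%), the Sp1 GC box GGGCGG (32.7%) and the CCAAT box (33.9%). In the Atp1b1 stretch the GC box began at -205 and -124, the CCAAT box at -81 and the TATA motif at -30 from the start site, while the Atp4a stretch held none of the 6. The stretch had a GC content of 51.2% at Atp4a and 70.4% at Atp1b1, against a median of 52.4% over all promoters. Of the 8 genes, 5 had a promoter in the table used, and besides Atp1b1 only Atp1b3 (5 GC boxes) and Fxyd4 (1 GC box) held any of these motifs. These matches describe letters in this window and show neither binding nor its absence.

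Levels are given as CPM, counts scaled to a common library total in 1 scaling of all 15 libraries, and, wherever genes are compared with each other, as CPM per kilobase of the principal transcript. On the per-length scale, Fxyd2 and Atp1b1 stood far above the other 6 members in every group. In proximal KO, Fxyd2 had 198 and Atp1b1 143 CPM per kilobase, with overlapping libraries. In proximal WT, Fxyd2 had 205 and Atp1b1 119 CPM per kilobase, and all 4 libraries of Fxyd2 lay above all 4 of Atp1b1. In distal tubule the order of the means turned round, with 353 for Atp1b1 and 284 CPM per kilobase for Fxyd2 in KO, and 383 and 328 CPM per kilobase in WT, and the libraries of the 2 genes overlapped in both genotypes. The order of these 2 genes rests on the length used, 632 bases for Fxyd2 and 2580 for Atp1b1: with all annotated exon bases (4005 and 3081) Fxyd2 lay below Atp1b1 in every group, at 32.3 and 99.5 CPM per kilobase in proximal WT. Atp4a came next in distal tubule, at 12.6 CPM per kilobase in KO and 13.8 in WT, above Atp1b3 at 6.25 and 6.23 CPM per kilobase. In proximal tubule Atp1b3 came next, at 5.15 CPM per kilobase in KO and 5.94 in WT. Fxyd4, Fxyd5, Atp1b2 and Atp12a stayed under 1 CPM per kilobase as group means, and most neighbours among them overlapped between libraries.

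**Figure D1:**
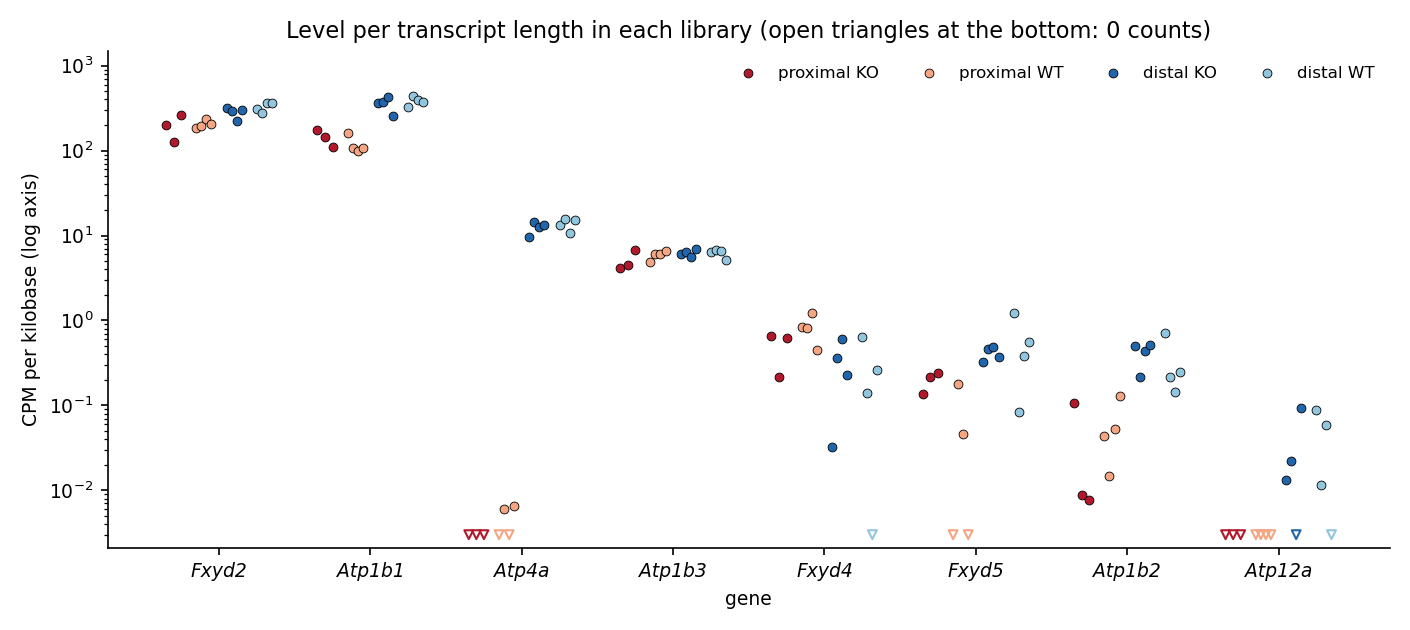
Level of each gene in CPM per kilobase (log axis) in every library, with genes ordered by their mean over the 4 groups; open triangles at the bottom are libraries with 0 counts. Fxyd2 and Atp1b1 lie at 98.2 to 443 CPM per kilobase, and Atp4a comes next in distal tubule but at 0 or 1 count in each proximal library.

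Among the beta subunits, the tubules expressed mainly Atp1b1, the usual kidney isoform, and its level was lower in proximal than in distal tubule in KO and WT, while KO and WT differed by less than the spread between libraries. Atp1b1 (ENSMUSG00000026576; GRCm38 chromosome 1, 164437109 to 164458355, minus strand) had 446, 374 and 284 CPM in the proximal KO libraries, against 420, 278, 253 and 274 CPM in the proximal WT libraries. The genotypes overlapped, since the highest WT library exceeded the middle KO library. In distal tubule it had 926, 961, 1097 and 659 CPM in KO, against 833, 1142, 1019 and 957 CPM in WT, again overlapping. Every proximal library lay below every distal library: Atp1b1 averaged 307 ± 76.6 CPM in proximal WT and 988 ± 129 CPM in distal WT (SD, n = 4 each), a log2 difference of -1.72 ± 0.15 (SE; limma, Benjamini-Hochberg adjusted p = 6.63e-08). It averaged 368 ± 81.4 CPM in proximal KO (SD, n = 3) and 911 ± 184 CPM in distal KO (SD, n = 4), a log2 difference of -1.30 ± 0.20 (limma adjusted p = 8.1e-05). In these bulk samples fewer cells of a type and less RNA per cell cannot be told apart. Reads of Nme7, which overlaps Atp1b1 on the opposite strand over 617 bases, came to 48 to 120 counts per library, against 12069 to 49943 for Atp1b1.

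Atp1b3, a widely expressed beta subunit (ENSMUSG00000032412; chromosome 9, 96332655 to 96364442, minus strand), had group means of 10.3 to 12.5 CPM. It had 8.36, 8.87 and 13.5 CPM in proximal KO, 9.81, 12.2, 12.2 and 13.1 CPM in proximal WT, 12.1, 12.8, 11.3 and 13.7 CPM in distal KO, and 12.7, 13.4, 13.3 and 10.3 CPM in distal WT. All 4 groups overlapped. The difference between proximal and distal tubule was -0.29 ± 0.21 in KO (95% interval -0.74 to 0.15; limma adjusted p = 0.289) and -0.08 ± 0.14 in WT (-0.37 to 0.22; limma adjusted p = 0.688), on the log2 scale. With 1 library left out the KO difference was -0.52 to -0.16, with limma adjusted p of 0.0775 to 0.639. Atp1b2, first described as an adhesion molecule on glia (ENSMUSG00000041329; chromosome 11, 69599736 to 69605942, minus strand), was scarce, with 11, 1 and 1 counts in proximal KO and 2 to 16 counts in proximal WT, against 21 to 64 counts in distal KO and 16 to 59 counts in distal WT. Its level was 0.118 ± 0.163 CPM in proximal KO (n = 3) and 1.19 ± 0.397 CPM in distal KO (SD, n = 4), and no library of one segment reached the other. The log2 difference was -4.03 ± 0.85 (limma adjusted p = 0.00146). In WT the levels were 0.17 ± 0.137 CPM in proximal and 0.943 ± 0.738 CPM in distal tubule (SD, n = 4 each), with a log2 difference of -2.41 ± 0.67 (limma adjusted p = 0.00696). The sizes varied with the fit: by limma-trend they were -3.23 in KO and -2.17 in WT. With 1 library left out they were -5.03 to -3.45 in KO and -2.83 to -1.92 in WT. In both genotypes Atp1b2 passed the filter on low counts only with its distal libraries, and 11 of its proximal KO counts were in replicate 4.

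The make-up of the beta subunit transcripts was also compared within each library, per kilobase, which needs no scaling between libraries. Atp1b1 made up 97.6, 97 and 94.2% of beta subunit transcripts in proximal KO, against 97, 94.6, 94.1 and 94.1% in proximal WT. It made up 98.2, 98.3, 98.6 and 97.2% in distal KO, against 97.9, 98.5, 98.3 and 98.6% in distal WT. In WT all 4 proximal libraries lay below all 4 distal libraries, with a mean difference of -3.35 percentage points. The exact two-sided permutation test gave p = 0.0286, the smallest that 4 against 4 allows. The value adjusted over the 8 composition tests was 0.114. With groups of 3 or 4 libraries no outcome of the 8 tests could give an adjusted value under 0.05. Not passing after adjustment therefore says nothing about these ratios. In KO the difference was -1.8 percentage points (exact p = 0.114, adjusted 0.305; -2.46 to -0.76 with 1 library left out), where 3 against 4 libraries cannot give a p below 0.0571. Between genotypes the differences were 1.31 percentage points in proximal tubule (exact p = 0.286, adjusted 0.457; 0.65 to 2.35 with 1 library left out) and -0.24 in distal tubule (exact p = 0.6, adjusted 0.686).

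Of the FXYD genes, Fxyd2 was abundant in both segments while Fxyd4 and Fxyd5 were near the limit of detection. Fxyd2, the gamma subunit of the Na,K-ATPase, whose human counterpart is mutated in a dominant form of renal magnesium loss (ENSMUSG00000059412; chromosome 9, 45399669 to 45410278, plus strand), had 128, 80.7 and 167 CPM in proximal KO, against 116, 123, 150 and 129 CPM in proximal WT. The KO libraries held both the lowest and the highest of these 7 values. In distal tubule it had 203, 183, 142 and 190 CPM in KO, against 197, 175, 230 and 228 CPM in WT. Fxyd2 was lower in proximal than in distal tubule of WT mice, at 129 ± 14.9 CPM and 208 ± 26.2 CPM (SD, n = 4 each), and the 2 groups did not overlap. The log2 difference was -0.69 ± 0.11 (limma adjusted p = 6.41e-05). In KO it was -0.56 ± 0.22 (limma adjusted p = 0.0567), the groups overlapped, and the size and the call depended on the libraries used. Without proximal KO replicate 5 it was -0.27 (limma adjusted p = 0.232), without proximal KO replicate 7 it was -0.80 (limma adjusted p = 0.0123), and with 1 fit of all 15 libraries it was -0.57 (limma adjusted p = 0.0155).

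Per kilobase of the principal transcripts, the ratio of Fxyd2 to Atp1b1 was 1.17, 0.881 and 2.40 in proximal KO, against 1.12, 1.8, 2.42 and 1.92 in proximal WT. In distal tubule it was 0.895, 0.778, 0.527 and 1.18 in KO, against 0.967, 0.626, 0.920 and 0.973 in WT. All proximal WT libraries lay above all distal WT libraries, with a mean difference in the log2 ratio of 1.03 (exact permutation p = 0.0286, adjusted over 8 tests 0.114). As for the shares, no adjusted value under 0.05 was possible. In KO the segments overlapped and the difference in the log2 ratio was 0.74 (exact p = 0.286, adjusted 0.457; 0.33 to 1.05 with 1 library left out). Between genotypes it was -0.37 in proximal tubule (exact p = 0.514, adjusted 0.686; -0.78 to -0.06 with 1 library left out) and -0.08 in distal tubule (exact p = 0.771, adjusted 0.771). Proximal WT replicate 1 and proximal KO replicates 4 and 5 had the lowest ratios, from 0.881 to 1.17, and the highest Atp1b1 shares, from 97 to 97.6%, of the 7 proximal libraries. Since Atp1b1 enters both measures, they are not independent.

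**Figure D2:**
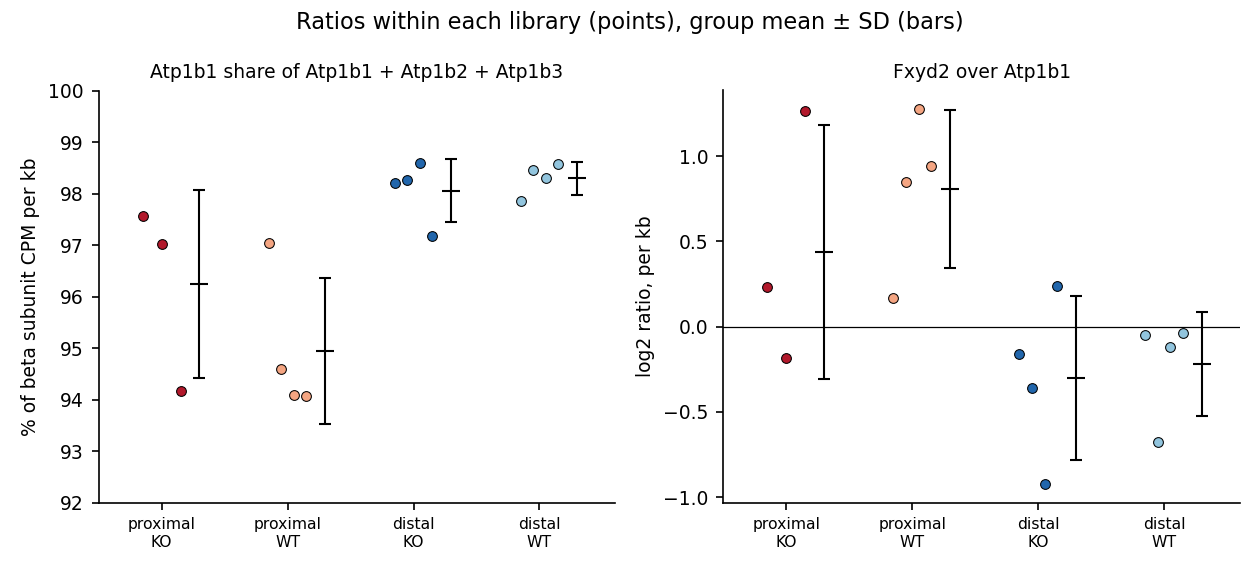
Left, share of Atp1b1 in the summed CPM per kilobase of Atp1b1, Atp1b2 and Atp1b3 in each library (axis not from 0); right, log2 ratio of Fxyd2 to Atp1b1 per kilobase, with group means and SD as bars. In WT the proximal and distal libraries do not overlap in either panel, and in KO they overlap in both.

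Fxyd4, also called corticosteroid hormone-induced factor and known from the collecting duct (ENSMUSG00000004988; chromosome 6, 117933559 to 117937692, minus strand), had 19, 7 and 23 counts in proximal KO, against 33, 32, 53 and 16 counts in proximal WT. Distal libraries had 1, 10, 20 and 8 counts in KO, against 15, 5, 0 and 10 counts in WT. In WT it was higher in proximal than in distal tubule, at 0.678 ± 0.262 CPM and 0.211 ± 0.222 CPM (SD, n = 4 each), although 1 distal library lay above 1 proximal library. The log2 difference of 2.53 ± 0.80 (limma adjusted p = 0.0149) was 1.5 (limma adjusted p = 0.0585) without distal WT replicate 3, the library with 0 counts. In KO the levels were 0.403 ± 0.199 CPM in proximal tubule (n = 3) and 0.25 ± 0.198 CPM in distal tubule (SD, n = 4), and the log2 difference was 1.02 ± 0.79 (limma adjusted p = 0.346). The 7 connecting tubule and principal cell markers summed to 2.73 to 5.74 CPM in proximal KO and 3.22 to 6.39 CPM in proximal WT, against 69.2 to 104 CPM in distal KO and 87.1 to 108 CPM in distal WT. Their defining marker Aqp2 had 0 counts in all 7 proximal libraries. The part of those cells in the Fxyd4 reads was not tested.

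Fxyd5, known as dysadherin (ENSMUSG00000009687; chromosome 7, 31032722 to 31042481, minus strand), had 4, 7 and 9 counts in proximal KO and 0, 7, 2 and 0 counts in proximal WT. Distal libraries had 10, 13, 16 and 13 counts in KO and 29, 3, 12 and 21 counts in WT. The proximal KO libraries lay below the distal KO libraries, at 0.161 ± 0.0448 CPM (n = 3) and 0.334 ± 0.064 CPM (SD, n = 4), but the log2 difference of -0.99 ± 0.60 did not pass (limma adjusted p = 0.215). In WT, Fxyd5 was below the filter on low counts in the fit of these 2 groups. The WT segments overlapped, since distal replicate 2 (0.0686 CPM) lay below proximal replicate 2 (0.145 CPM). Fxyd5 passed the filter where all 15 libraries shared 1 fit, since libraries of every group count toward it there. That fit gave a log2 difference between proximal and distal WT of -3.31 ± 1.01 (limma adjusted p = 0.0101). It rests on 9 proximal and 65 distal counts and is not read as a segment difference.

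Of the H,K-ATPase genes, Atp4a was read in distal tubule and close to absent from proximal tubule, in KO and WT alike, and Atp12a was scarce everywhere. Atp4a (ENSMUSG00000005553; chromosome 7, 30712209 to 30725534, plus strand) had 0 counts in all 3 proximal KO libraries and 0, 1, 0 and 1 counts in proximal WT. Distal libraries had 1281, 1744, 1783 and 2021 counts in KO, against 1356, 2393, 1466 and 2463 counts in WT, which is 33.6 to 50.7 CPM and 37.8 to 54.7 CPM. Taking 3 counts per library as the limit that a count of 0 allows, Atp4a was at least 586-fold lower in proximal than in distal KO. In WT, the ratio of distal to proximal summed counts per scaled total was 4693 (95% exact interval 1299 to 38761, counting error only), since the proximal sum was 2 counts. The limma adjusted p was 3.45e-08 in KO and 3.01e-09 in WT. The fitted log2 difference depends on the prior count and is no bound: it was -11.8 in KO and -11.4 in WT with a prior count of 0.5, and -9.74 and -9.76 by limma-trend with a prior count of 2. Distal levels were 43.8 ± 7.28 CPM in KO and 48 ± 7.6 CPM in WT (SD, n = 4 each), and the genotypes overlapped (log2 difference -0.14, 95% interval -0.44 to 0.17; limma adjusted p = 0.876). No annotated gene overlaps Atp4a.

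Atp4b, the beta subunit that pairs with Atp4a in the stomach and is not one of the 8 genes, had 0 counts in all 15 libraries, which allows up to 0.0774 CPM per library on average in distal KO and 0.0784 CPM in distal WT. Intercalated cells are the nephron cells best known for H,K-ATPase activity, and the distal pools contained their transcripts. Distal KO replicate 5, with 33.6 CPM, had the lowest Atp4a level of the 8 distal libraries and also the lowest sum of the 9 intercalated markers, at 139 CPM. The highest marker sum, 289 CPM, was in distal WT replicate 3, which had the second lowest Atp4a level, 37.8 CPM. The part of intercalated, thick limb or connecting tubule cells in the Atp4a reads was not tested.

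Atp12a (ENSMUSG00000022229; chromosome 14, 56365068 to 56388550, plus strand) had 0 counts in all 7 proximal libraries, which allows up to 0.0747 CPM per library on average in KO and 0.0623 CPM in WT. Distal libraries had 2, 3, 0 and 16 counts in KO and 10, 2, 9 and 0 counts in WT. Levels of 0.127 ± 0.165 CPM in distal KO and 0.156 ± 0.161 CPM in distal WT (SD, n = 4 each) were too low for the filter in every comparison. Fitted without the filter, the log2 difference between proximal and distal tubule was -2.55 in KO (limma adjusted p = 0.0471) and -2.91 in WT (limma adjusted p = 0.0208). Since all proximal counts were 0, its size and its p-value both depend on the prior count. The segments overlapped in both genotypes, with 1 library at 0 in each distal group, and 16 of the distal KO counts were in replicate 8. These values are therefore not read as a segment difference. An antisense gene, Gm10873, spans 11649 bases of Atp12a and had 0 to 4 counts, and the strand setting of the counting is not given in the sources used here.

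**Figure D3:**
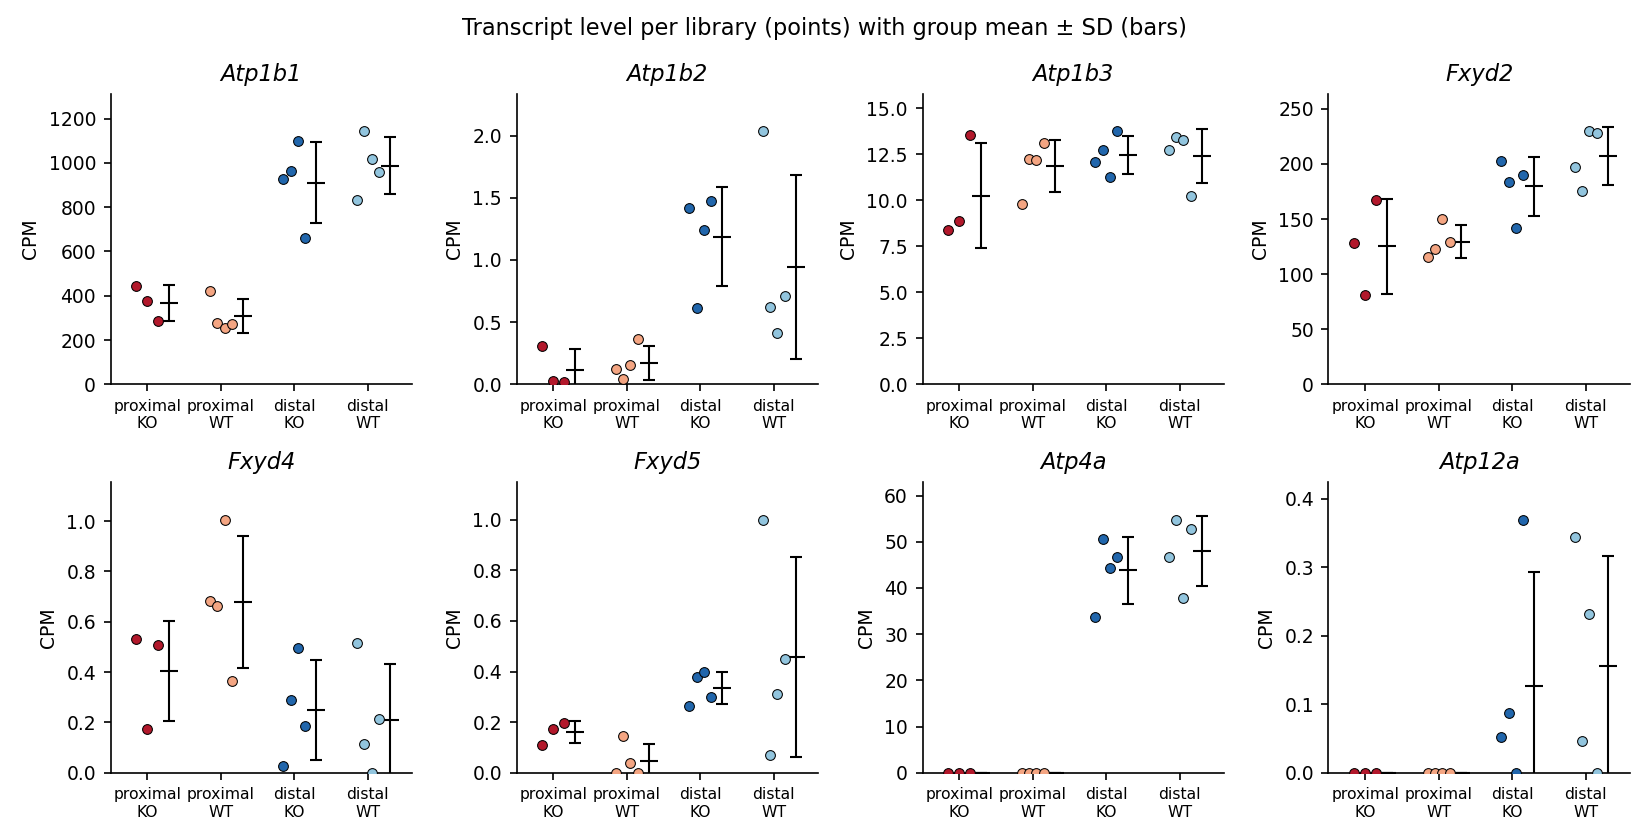
CPM of each of the 8 genes in every library (points, 1 panel a gene, axes from 0), with group mean and SD as bars to the right of the points. Atp1b1, Atp1b2 and Atp4a are apart between segments in both genotypes, and KO and WT overlap in both segments for every gene.

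Counted over the 8 genes, no member was called between genotypes. In proximal tubule, KO against WT, 4 members were tested and 0 were called by limma at an adjusted p under 0.05, while 0.166% of 13229 genes were called (22 genes). None of the 4 had an unadjusted p under 0.05, and 0 were called by limma-trend. Fxyd5, which was below the filter, had a log2 difference of 2.47 (95% interval 0.15 to 4.79; limma adjusted p = 0.516) in 1 fit of all 15 libraries, from 20 counts in KO and 9 in WT. The log2 differences were 0.26 ± 0.20 for Atp1b1 (95% interval -0.18 to 0.69), -0.24 ± 0.20 for Atp1b3 (-0.67 to 0.20), -0.11 ± 0.21 for Fxyd2 (-0.57 to 0.34) and -0.84 ± 0.57 for Fxyd4 (-2.06 to 0.38). The authors' deposited table gives 0.25, -0.22, -0.06 and -0.76 for the same 4 genes, with the sign read from Cldn10 as KO over WT. The labels number the proximal libraries in 2 series: within the larger one (2 KO, 3 WT) the log2 ratio of mean CPM was 0.37 for Atp1b1, -0.41 for Atp1b3, -0.31 for Fxyd2 and -1.15 for Fxyd4. Within the smaller one (1 KO, 1 WT) it was 0.05, 0.05, 0.37 and 0.48 for the same genes in that order, so the sign held in both series for Atp1b1 alone. All 8 distal libraries belong to the larger series.

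In distal tubule, KO against WT, 6 members were tested and 0 called, while limma called 0% of 12968 genes (925 had an unadjusted p under 0.05, and limma-trend also called 0). None of the 6 had an unadjusted p under 0.05. The log2 differences were -0.13 ± 0.14 for Atp1b1 (-0.43 to 0.17), 0.64 ± 0.43 for Atp1b2 (-0.25 to 1.53), 0.02 ± 0.15 for Atp1b3 (-0.29 to 0.33), -0.21 ± 0.13 for Fxyd2 (-0.49 to 0.06) and 0.17 ± 0.66 for Fxyd5 (-1.21 to 1.55). The mean CPM of Fxyd5 ran the other way, at 0.334 in KO and 0.457 in WT, so its direction is not settled. The authors' deposited table gives -0.12 for Atp1b1, 0.36 for Atp1b2, 0.01 for Atp1b3, -0.21 for Fxyd2, -0.43 for Fxyd5 and -0.13 for Atp4a. The difference of the knockout effect between segments, tested in 1 fit of all 15 libraries, was called for 0 of 7 members, while limma called 0% of 15279 genes (849 had an unadjusted p under 0.05, and limma-trend called 5 genes, 0 of them members). It was 0.40 ± 0.25 for Atp1b1 (95% interval -0.12 to 0.92), 0.11 ± 0.25 for Fxyd2 (-0.40 to 0.63) and -0.24 ± 0.24 for Atp1b3 (-0.74 to 0.26). The other members tested had wide intervals: 2.32 for Fxyd5 (-0.35 to 4.99), -1.66 for Atp1b2 (-4.13 to 0.81), -1.54 for Fxyd4 (-4.03 to 0.96) and -0.40 for Atp4a (-3.34 to 2.55).

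Between segments, proximal against distal, 3 of the 7 members tested in KO were lower and 0 higher, where 20.2% of 13834 genes were called lower and 20.4% higher. In WT, 4 of the 6 members tested were lower (Atp1b1, Atp1b2, Fxyd2 and Atp4a) and 1 was higher (Fxyd4), where 25.1% of 13616 genes were called lower and 23.6% higher. All proximal libraries lay below all distal libraries for 4 of the 7 members tested in KO (Atp1b1, Atp1b2, Fxyd5 and Atp4a), where 22.2% of all genes tested did so. In WT this held for 4 of the 6 members tested (Atp1b1, Atp1b2, Fxyd2 and Atp4a), where 22.3% of all genes tested did so. Atp1b2 and Atp4a in both genotypes, and Fxyd5 in KO, passed the filter on low counts only with their distal libraries. Fxyd4 in WT passed only with its proximal libraries. Genes let in by 1 segment lean to that side through the filter, so these counts of members are not read as a result about them. With mitochondrially encoded genes left out before scaling, the log2 difference of Atp1b1 was -1.31 in KO and -1.71 in WT, and that of Fxyd2 was -0.57 in KO and -0.68 in WT.

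**Figure D4:**
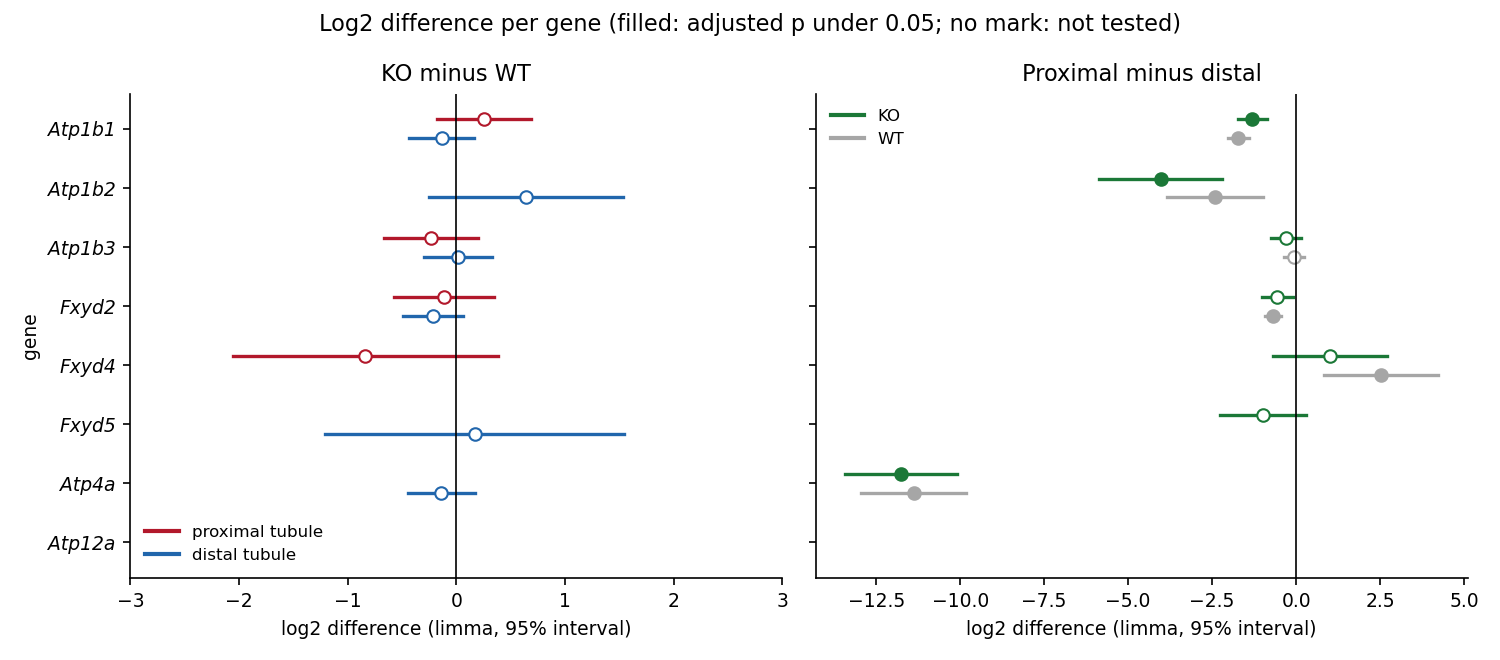
Log2 differences from limma with 95% intervals, KO minus WT in each segment on the left and proximal minus distal tubule in each genotype on the right; filled points passed an adjusted p under 0.05 and a missing mark was not tested. Every interval on the left includes 0, and Atp4a lies at -11.8 in KO and -11.4 in WT on the right, values set in part by the prior count since its proximal counts are 0 or 1.

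Fxyd6, another FXYD gene, had 9, 3 and 0 counts in proximal KO and 0 or 1 count in proximal WT, against 47 to 132 counts in distal KO and 79 to 146 counts in distal WT. It was lower in proximal tubule by a log2 difference of -4.87 ± 0.97 in KO (limma adjusted p = 0.000903) and -7.68 ± 0.61 in WT (limma adjusted p = 2.89e-08), where the proximal WT value rests on 1 count. Atp1b4, Fxyd1, Fxyd3 and Fxyd7 had at most 10 counts in any library.

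Of 18 genes that work beside the pump, such as basolateral potassium channels and regulators of the pump, 15 were tested between segments. In KO 6 were higher and 7 lower in proximal tubule, with a median log2 difference of -0.25, and in WT 5 were higher and 7 lower, with a median of 0.17; the medians over all genes tested were -0.04 and -0.02. Over all genes, 20.4% were higher and 20.2% lower in KO, and 23.6% were higher and 25.1% lower in WT. Kcnj15, a potassium channel subunit, had 306 ± 18.5 CPM in proximal KO (n = 3) and 0.287 ± 0.144 CPM in distal KO (SD, n = 4), and 264 ± 37.4 CPM in proximal WT and 0.88 ± 0.349 CPM in distal WT (SD, n = 4 each). Kcnj10, the distal potassium channel that recycles the potassium taken up by the pump, had 0.00828 ± 0.0143 CPM in proximal KO (n = 3) and 106 ± 11.8 CPM in distal KO (SD, n = 4). Between genotypes, 0 of these genes were called in proximal (11 tested) or distal tubule (14 tested), beside 0.166% and 0% of all genes tested. Their median log2 difference was 0.06 in proximal and 0.02 in distal tubule, and -0.01 over all genes in each.

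The 10 apical sodium entry genes bring in the sodium that the pump removes. Slc34a1, Slc5a2, Slc12a3, Slc12a1, Scnn1b and Scnn1g among them are also markers of proximal, distal, thick limb or connecting tubule cells. Their split by segment therefore follows from the choice of genes. In both KO and WT, 4 were higher and 5 lower in proximal tubule of 10 tested, beside 20.4% higher and 20.2% lower over all genes in KO and 23.6% and 25.1% in WT. The median log2 difference was -4.10 in KO and -3.48 in WT, and since the members lie far to both sides it describes neither side. Slc34a1, the proximal sodium phosphate cotransporter, had 1106 ± 187 CPM in proximal KO (n = 3) and 0.747 ± 0.426 CPM in distal KO (SD, n = 4). Scnn1g, the gamma subunit of the epithelial sodium channel, had 0.016 ± 0.0107 CPM in proximal WT and 54.2 ± 8.36 CPM in distal WT (SD, n = 4 each). Between genotypes 0 were called in either segment (8 tested in each), beside 0.166% of 13229 genes in proximal and 0% of 12968 genes in distal tubule. The median log2 difference was -0.46 in proximal and 0.05 in distal tubule, and -0.01 over all genes in each. Slc34a3, another sodium phosphate cotransporter, had 7.56 ± 2.67 CPM in proximal KO (n = 3) and 17.1 ± 3.86 CPM in proximal WT (SD, n = 4), a log2 difference of -1.24 ± 0.27 that did not pass (limma adjusted p = 0.107).

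For the members with a mean of at least 2 CPM, the 3 protein-coding genes with the most similar profile over the 15 libraries were found by the root mean square difference of centred log2 CPM, among 7147 genes. For Atp1b1 they were Becn1 (0.21), Nampt (0.22) and Sh3gl2 (0.24), for Atp1b3 Cdc42 (0.10), Mrfap1 (0.14) and Snx12 (0.16), and for Fxyd2 G6pc3 (0.12), Ndufs7 (0.13) and Cox8a (0.14). For Atp4a they were Scnn1g (0.41), the kallikrein Klk1b3 (0.44) and the transcription factor Tfap2b (0.46) with means of 28.8, 19.5 and 28 CPM over the 15 libraries. The distances for Atp4a were larger than for the others, and its proximal values rest on 0 or 1 count.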

How the data were processed

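Counts per gene for 15 libraries were used as deposited. The authors call them raw counts; they are whole numbers, but the unit was recorded as other because the layout could not be read by the format check, so limma was used as the test. Per the submitters' processing notes, the authors' tools included CASAVA 1.8, STAR 2.5 and DESeq2 1.24.0, on GRCm38. Libraries were prepared by the Nextera XT protocol, per the labels. Which program, annotation and strand setting gave the counts is not given in the sources used here; reads shared by overlapping or near-identical genes could therefore be split in an unknown way. The authors' deposited tables of log2 fold changes and p-values were read only for comparison. All count columns were matched to samples (0 unused).

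The 8 members, the gene lists and the marker lists were chosen with earlier results of these data known. limma 3.58.1 (R 4.3.3) was run on log2 CPM (prior count 0.5) with voom weights. Scaling was by trimmed means of M values, trimming 30% of log ratios and 5% of intensities. Genes were kept where at least as many libraries as the smaller group has reached a depth-scaled count of about 10, with a total of at least 15. Each of the 4 two-group comparisons was fitted on its own groups and the interaction on all 15 libraries. p-values were Benjamini-Hochberg adjusted over all genes tested and called under 0.05. Ratios within libraries (0.5 counts added to both genes in the log2 ratio) were compared by exact two-sided permutation tests in scipy 1.17.1. Lengths are those of the APPRIS principal transcript in GENCODE M21, a choice made after seeing the data, as was its alternative. Upper limits for 0 counts use 3 counts per library; limits and intervals cover only counting error, and PCR copies are not independent molecules. The fits were tested on simulated data. Named were all 8 members, up to 4 genes with the smallest p in each list, and the 3 most similar profiles of each member at 2 CPM or more. Some genes of the lists are not reported here.

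Alternatives were median-of-ratios scaling, no filter, sample quality weights, a stricter filter (at least 10 counts throughout 1 group), limma-trend (prior count 2), mitochondrially encoded genes left out, 1 fit of all 15 libraries, the library number series as a covariate, the replicate number as a block, and each library left out. For the ratios they were counts in place of values per length, 5 counts added, and all exon bases as the length.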

Additional observations from a re-analysis of the deposited data

Results flagged for a closer look

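Among 28 groups of 4 libraries tested for a value far from the rest, 2 stood apart, where chance alone marks about 1 in 20 groups. Proximal WT replicate 1 had 420.3 CPM of Atp1b1, while the other 3 proximal WT libraries had 253 to 278 CPM. Its gap to the nearest library was 0.853 of the whole range of the group. The same library had the lowest ratio of Fxyd2 to Atp1b1 and the highest Atp1b1 share of the 4 proximal WT libraries. Atp1b1 enters both measures, so these are not separate observations. Distal WT replicate 2 had a log2 ratio of Fxyd2 to Atp1b1 of -0.6756, while the other 3 distal WT libraries had -0.12 to -0.04. Its gap was 0.871 of the range of the group, and it held the highest Atp1b1 level (1142 CPM) and the lowest Fxyd2 level (175 CPM) of that group.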

How the results depend on the processing

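The number of members called was 0 between genotypes and for the interaction under every alternative run. Between segments it was 5 to 7 in WT and 3 to 4 in KO under the other alternatives, and 4 to 6 and 3 to 4 with 1 library left out. Called genes moved more. For proximal KO against WT, 22 became 123 with 1 fit of all 15 libraries, 80 without a filter, 40 with sample quality weights, 36 with the stricter filter, and 2 to 18 with each library left out. Without a filter, 4 genes were called in distal tubule and 1 for the interaction, which had 5 by limma-trend and 0 to 1 with 1 library left out. The replicate numbers are not animal numbers throughout: 4 is KO in proximal and WT in distal tubule, and 6 is WT in proximal and KO in distal tubule. Whether same-numbered proximal and distal libraries of 1 genotype share an animal is not given and could not be decided here. Deviations from the group means of same-numbered libraries correlated at -0.12 to 0.02. For differently numbered libraries of 1 genotype they correlated at -0.04 to 0.13, and groups of 3 or 4 libraries leave few pairs. The replicate block compares segments only within numbers found in both, 5 and 7 in KO and 1, 2 and 3 in WT, so fewer libraries inform it. With the replicate block, called genes between segments were 3238 in KO and 5840 in WT, against 5622 and 6631 without it, and 3 and 5 members were called, the same numbers as without it; Fxyd2 between segments in KO, not a call without it, had an adjusted p of 0.488. The log2 difference between genotypes changed sign for Fxyd2 in proximal tubule (0.053 with sample quality weights; -0.37 to 0.17 with 1 library left out). In distal tubule it did so for Atp1b3 (-0.011 with sample quality weights; -0.084 to 0.064 with 1 library left out), Fxyd5 (-0.025 by limma-trend; -0.54 to 0.58) and Atp1b1 (-0.23 to 0.012). With 1 library left out, Atp1b3 between segments in WT ranged from -0.16 to 0.022, the Fxyd2 interaction from -0.14 to 0.40, the Atp1b1 share between distal genotypes from -0.42 to 0.055 points and the log2 ratio of Fxyd2 to Atp1b1 there from -0.26 to 0.13. None of these was a call, and the cause was not tested. With all exon bases as length, or counts in place of values per length, the 4 comparisons of the Atp1b1 share kept their directions. Their adjusted p in the exact permutation test was 0.114 or more, where none under 0.05 was possible. The limits are 3 or 4 libraries a group and few counts: Fxyd4, Fxyd5, Atp1b2 and Atp12a had at most 64 counts in any library, so their intervals are wide (Fxyd4 between proximal genotypes, -2.06 to 0.38).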
